A study of Homo sapiens with 12 samples.

Results

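The extracellular matrix genes described here are 44 genes for matrix proteins and for the enzymes and chaperone that process collagen, of 20595 genes in the count table. They were chosen by symbol, with earlier results of these data known, and each was matched by its Ensembl identifier to exactly 1 row. They comprise 13 collagen genes, 7 laminin genes, 16 glycoprotein and proteoglycan genes and 8 genes for processing enzymes and a chaperone. RNA-seq had been carried out on A549 and H1792, both human lung adenocarcinoma (LUAD) cell lines with MDM2 amplification. A549 is p53 wild type (WT) and H1792 is p53 mutant, with the status taken from most of the paper's text, since its RNA-seq sentence gives it the other way round. Each line was treated for 48 h with DMSO, the vehicle, or with 1 μM RG7112, a nutlin-family inhibitor that occupies the p53-binding pocket of MDM2. The 4 groups (A549 with DMSO, A549 with RG7112, H1792 with DMSO and H1792 with RG7112) held 3 replicates each, 12 samples in all. The column names of the table state a dose of 0.1 μM, which conflicts with the labels and the paper. The labels name RPMI-1640 as the growth medium of both lines, while the paper's methods differ for A549. They do not say that replicates came from separate cultures, so p-values measure the spread between these samples, which may be technical. Each line stands for 1 p53 status, so p53 status and every other difference between the lines cannot be told apart.

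The extracellular matrix is the protein scaffold that cells secrete around themselves. Collagen chains are hydroxylated and folded in the endoplasmic reticulum, assembled into triple helices, secreted, and then cross-linked outside the cell. Laminins, type IV collagen, perlecan and agrin make up the basement membrane on which epithelial cells rest, whereas fibrillar collagens, fibronectin and periostin belong to the interstitial matrix that is made mostly by fibroblasts. Carcinoma cells deposit part of this matrix themselves and change it when they lose epithelial features.

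Total counts lay between 2011916 and 6218825 per sample, and 3 counts corresponded to 0.464 to 1.43 CPM, a unit that scales every library to the same total. CPM values were normalised by the trimmed mean of M-values (TMM) over all 12 samples, and a gene was called at a Benjamini-Hochberg adjusted p under 0.05 in edgeR's quasi-likelihood test, with the adjustment over all genes tested. MDM2, itself a p53 target, rose from 8.52 ± 4.98 to 69.0 ± 9.25 CPM (SD, n = 3) in A549 (adjusted p = 0.0102) and had a log2 fold change of -0.05 in H1792 (adjusted p = 0.928). Replicate 3 of both A549 groups stood apart from replicates 1 and 2, and results that rest on it are given with and without it. Defining lung markers were absent or nearly so, as the summed level of NKX2-1, NAPSA, SFTPA1, SFTPB and SFTPC stayed at or below 6.23 CPM in every sample. The summed epithelial markers (EPCAM, CDH1, KRT7, KRT8, KRT18 and KRT19) reached 14442 to 24010 CPM in A549 and 1067 to 2180 CPM in H1792. Between the DMSO groups the 4 keratins were called higher in A549. EPCAM and CDH1 had too few counts to be tested between those groups. Of the 6 fibroblast markers (DCN, LUM, PDGFRA, PDGFRB, THY1 and FAP), the sum was 7.11 to 22.5 CPM over all samples, with FAP at 0 in A549 and THY1 at 0 in H1792. In these bulk samples fewer cells of a type and less RNA per cell cannot be told apart.

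The first comparison asked how the matrix differs between the lines before treatment. COL1A1, COL1A2, SPARC and POSTN were abundant in H1792 and near 0 or low in A549, and FN1 was abundant in both lines and higher in H1792. COL4A1, COL4A2, LAMA5 and HSPG2 of the basement membrane were higher in A549, while COL7A1 and LAMC1 of the same structure were higher in H1792 and LAMA3, LAMB2, LAMB3 and AGRN were not called. Without A549 DMSO replicate 3, LAMB3 was called higher in A549 and AGRN higher in H1792. That replicate was the lowest A549 DMSO sample for LAMB3 and the highest for AGRN. Of the 35 members tested between the DMSO groups, 26 (74.3%) were called, 10 higher in A549 and 16 higher in H1792, against 49.7% of all 10330 genes tested (26.5% higher in A549 and 23.2% higher in H1792). CPM did not overlap between the lines for 61.1% of all genes tested. By class, the call held for 9 of 10 collagen genes, 2 of 5 laminins, 10 of 14 glycoproteins and proteoglycans and 5 of 6 processing genes. LAMB1 and THBS2 had no count in any sample, and COL3A1, COL17A1, FBN2 and LAMA1 had too few counts to be tested in any comparison.

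**Figure D1:**
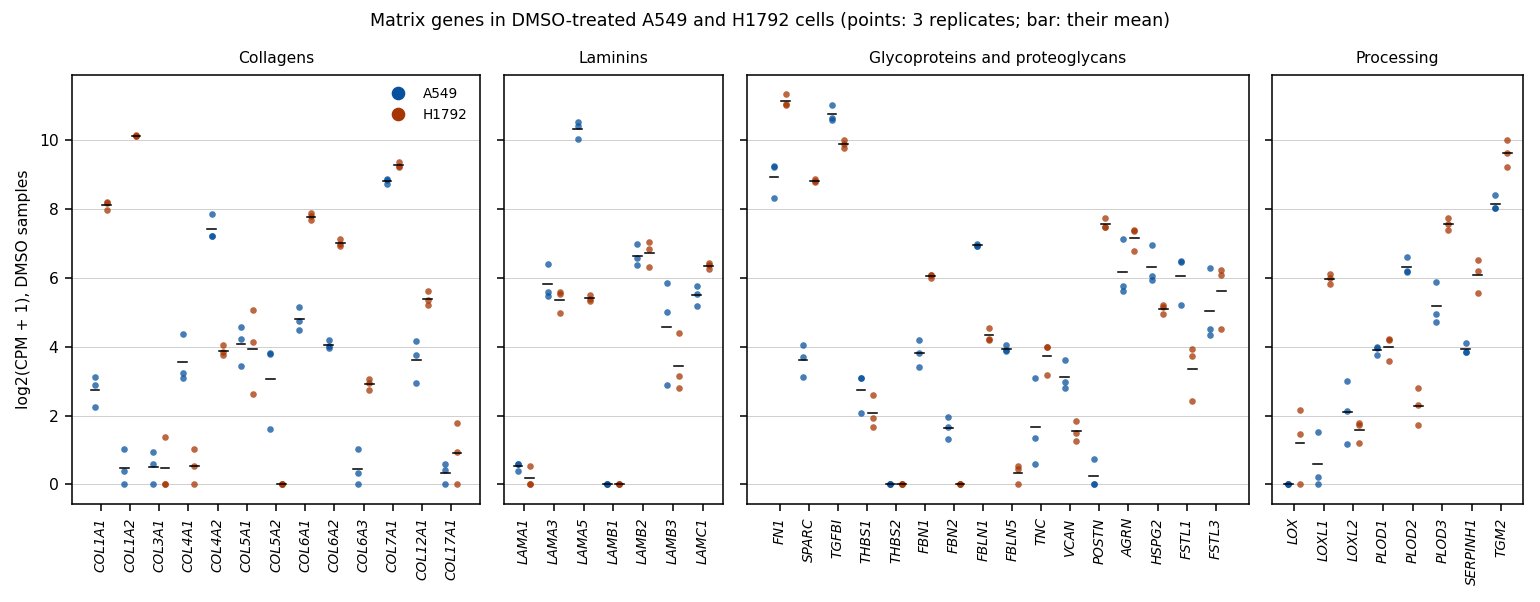
Levels of the 44 matrix genes in the DMSO samples as log2(CPM + 1) on the y axis, by class, with 1 point per replicate for A549 (blue) and H1792 (brown) and a bar at the mean of the 3 log values. COL1A1, COL1A2, SPARC, POSTN and LOXL1 lie at or below 15.7 CPM in A549 and between 55.3 and 1132 CPM in H1792, while LAMA5 lies between 1057 and 1488 CPM in A549.

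Among the collagens, COL1A2 encodes the α2 chain of type I collagen, the main fibrillar collagen of connective tissue. Its level was 0.311, 1.02 and 0 CPM in the A549 DMSO samples and 1132, 1108 and 1107 CPM in the H1792 DMSO samples. With 3 counts worth up to 0.934 CPM in the A549 DMSO samples, the A549 values are close to the detection limit, and the groups lie far apart (log2 difference, A549 minus H1792, -10.91 ± 0.38 SE, adjusted p = 8.53e-06). That size rests on 1, 6 and 0 counts in A549, and it was -12.59 without A549 DMSO replicate 2 and -10.39 without A549 DMSO replicate 3. COL1A1, for the α1 chain, was at 3.74, 7.66 and 6.46 CPM in A549 and 290.4, 295 and 251 CPM in H1792 (log2 difference -5.45 ± 0.23, adjusted p = 1.46e-05). Per kb of exon, H1792 held 3.54 ± 0.298 (SD, n = 3) times as much COL1A2 as COL1A1 mRNA. COL6A1, COL6A2 and COL6A3, the chains of microfibrillar type VI collagen, were also higher in H1792, with log2 differences of -2.96, -2.97 and -3.59. The value of COL6A3 rests on 0, 6 and 1 counts in A549 and was -5.22 without A549 DMSO replicate 2.

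Type IV collagen, the network-forming collagen of basement membranes, showed the reverse. COL4A2 was at 149, 148 and 231 CPM in A549 and 12.7, 15.4 and 13.5 CPM in H1792, with every A549 sample higher (log2 difference 3.70 ± 0.22, adjusted p = 4.25e-05). COL4A1, whose chains pair with those of COL4A2 in the same molecule, was at 7.47, 8.34 and 19.6 CPM in A549 and 1.05, 0 and 0.435 CPM in H1792 (log2 difference 4.67 ± 0.88, adjusted p = 0.00467). The COL4A1 difference was 5.99 without H1792 DMSO replicate 1 and 3.90 without H1792 DMSO replicate 2. The RefSeq starts of these genes lie 127 bases apart on chromosome 13 on opposite strands, and their levels per kb nonetheless differed 12.6 ± 3.24-fold (SD, n = 3) in favour of COL4A2 in A549 with DMSO. Antisense transcripts overlap exons of COL4A2, SPARC, VCAN and LOXL1, genes on the opposite strand overlap exons of HSPG2, FSTL1, PLOD3, TGM2 and LOX, and an RNA on the same strand overlaps those of AGRN. Reads of overlapping genes may have been divided between them because the strand setting of the quantification is not stated in the sources used here. COL5A2, a minor fibrillar chain, had no count in H1792 with DMSO and was at least 25.6-fold higher in A549, against a floor of 3 counts over the group. That bound rests on A549 values of 12.8, 2.04 and 13.2 CPM, and COL5A2 was not tested between the DMSO groups in the main test.

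LAMA5, the laminin α5 chain of epithelial basement membranes, was the most abundant laminin of A549, at 1358, 1488 and 1057 CPM against 40.8, 44.7 and 39.6 CPM in H1792 (log2 difference 5.01 ± 0.18, adjusted p = 8.72e-06). Its exons overlap those of ADRM1 on the opposite strand. Relative to LAMC1, the γ1 chain with which it assembles, LAMA5 stood at 17.1 ± 0.695 per kb in A549 and 0.304 ± 0.0370 in H1792 (SD, n = 3). LAMC1 itself was higher in H1792 by 0.80 on the log2 scale (adjusted p = 0.0123). LAMA3, LAMB2 and LAMB3 were not called between the lines, with log2 differences of 0.54, -0.06 and 1.49, though LAMB3 was called without A549 DMSO replicate 3.

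Of the glycoproteins, POSTN (periostin, a matricellular protein of fibroblasts) was at 0, 0.681 and 0 CPM in A549 and at 213, 179 and 176 CPM in H1792 (log2 difference -9.10 ± 0.48, adjusted p = 2.80e-05). Its size rests on 4 counts in A549 DMSO replicate 2, without which A549 had no count and the fitted value, then no bound, was -12.29. SPARC (osteonectin, a collagen-binding protein) was at 12.1, 7.66 and 15.7 CPM in A549 and at 473, 449 and 442 CPM in H1792 (log2 difference -5.24 ± 0.24, adjusted p = 1.72e-05). Both genes thus separated the lines without overlap. The elastic-fibre protein gene FBLN5 was at 13.7 to 15.7 CPM in A549, where H1792 had 2 counts in all, a ratio of 68.4 with an exact 95% counting interval of 18.7 to 569. FBN1 and FN1 were higher in H1792, by 2.23 and 2.10 on the log2 scale, and FBLN1, FSTL1, VCAN, HSPG2 and TGFBI were higher in A549, by 2.71, 2.88, 2.08, 1.35 and 0.92.

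The enzymes that modify collagen lysines were divided between the lines. PLOD2, the lysyl hydroxylase of collagen telopeptides, was at 71.0, 96.2 and 72.6 CPM in A549 and at 5.98, 2.30 and 3.92 CPM in H1792 (log2 difference 4.38 ± 0.36, adjusted p = 0.000139). Its paralog PLOD3, which also glycosylates hydroxylysine, was higher in H1792 by 2.30 on the log2 scale. LOXL1, a lysyl oxidase family member that cross-links elastin and collagen, was at 1.87, 0.170 and 0 CPM in A549 and at 62.9, 67.7 and 55.3 CPM in H1792 (log2 difference -6.66 ± 0.74, adjusted p = 0.000535). With 6, 1 and 0 counts in A549, this was -8.83 without A549 DMSO replicate 1. Every A549 sample of LOXL1 was thus below every H1792 sample. SERPINH1 (HSP47, the collagen-specific chaperone) and TGM2 (transglutaminase 2, which cross-links matrix proteins) were higher in H1792 by 2.24 and 1.45. LOX had no count in A549 with DMSO and 14 counts in H1792, which is 6.45-fold above a floor of 3 counts over the A549 group. Its H1792 values were 3.52, 0 and 1.74 CPM, so the groups overlapped at 0. LOX was not tested between the DMSO groups in the main test.

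When levels were divided by exon length, TGFBI (an adhesion protein induced by TGF-β) came first in A549 with DMSO at 223 ± 38.5 CPM per kb, followed by LAMA5 at 91.0 ± 15.5, each above the next gene in every sample. COL7A1, TGM2 and FN1 came next at 40.8, 35.8 and 29.4, and the values of neighbours in that order overlapped between samples. In H1792 with DMSO, FN1, TGFBI, TGM2 and COL1A2 led at 131, 122, 101 and 100.01 CPM per kb, overlapping from neighbour to neighbour, and SPARC followed at 94.1 below every COL1A2 value.

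The next comparison asked what RG7112 did in p53 WT A549 cells. COL7A1, HSPG2 and FBN1 rose and FBLN1 fell, which made 4 of 33 members tested (12.1%) against 8.38% of all 10739 genes tested. Rises made up 3 of the 33, with 4.35% of all genes called higher, and the fall 1, with 4.03% called lower. The other 29 members were not called, although 27 of the 33 had a log2 fold change above 0 and the median of the 33 was 0.52, where the median of all genes tested was -0.01. With a correction for GC content the median of the members was 0.33. Groups did not overlap in CPM for 32.4% of all genes tested.

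COL7A1 encodes type VII collagen, which forms the anchoring fibrils that tie epithelial basement membranes to the tissue beneath. Its gene lies at chr3:48564073-48595267 on the minus strand of GRCh38. COL7A1 was counted at 425, 465 and 464 CPM with DMSO and at 1449, 1454 and 1399 CPM with RG7112 (log2 fold change 1.67 ± 0.11 SE, adjusted p = 0.000476). All RG7112 samples were about equally high, replicate 3 included, and none overlapped the DMSO samples. HSPG2 (chr1:21822245-21937297, minus strand) encodes perlecan, the large heparan sulfate proteoglycan of basement membranes. It was at 60.7, 65.9 and 123 CPM with DMSO and at 277, 265 and 523 CPM with RG7112, so that replicate 3 was the highest in both groups, and the log2 fold change was 2.09 ± 0.38 (adjusted p = 0.0182). The call for HSPG2 was lost without DMSO replicate 1 (log2 fold change 1.91, adjusted p = 0.0783) or without DMSO replicate 2 (1.94, adjusted p = 0.0866). Without replicate 3 of both groups it was 2.10 (adjusted p = 0.00168).

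FBN1, the gene of fibrillin-1, the core protein of elastic-fibre microfibrils, was at 9.65, 17.2 and 13.2 CPM with DMSO and at 57.8, 57.1 and 32.5 CPM with RG7112 (log2 fold change 1.87 ± 0.33, adjusted p = 0.0162). Here replicate 3 was the lowest of the RG7112 samples, though still above every DMSO sample. This call was lost without DMSO replicate 1 (log2 fold change 1.68, adjusted p = 0.0667), without DMSO replicate 3 (1.85, adjusted p = 0.0577), and without RG7112 replicate 1 (1.73, adjusted p = 0.0675) or 2 (1.75, adjusted p = 0.0632). FBLN1 encodes fibulin-1, a basement membrane and elastic-fibre glycoprotein, and was the member that fell. It was at 120.2, 126 and 121 CPM with DMSO and at 43.3, 34.2 and 48.8 CPM with RG7112, with no overlap (log2 fold change -1.53 ± 0.17, adjusted p = 0.00319). COL7A1 and FBLN1 were called under every alternative setting and without any single sample.

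Several further laminin and type VI collagen genes had positive log2 fold changes in A549 that did not pass the test. LAMB2 (laminin β2) was at 81.6, 94.7 and 126 CPM with DMSO and at 163, 187 and 361 CPM with RG7112 (log2 fold change 1.24 ± 0.33, adjusted p = 0.0661). LAMA3, LAMA5, COL6A1 and COL6A2 had log2 fold changes of 1.04, 0.52, 1.27 and 0.89, with adjusted p between 0.0636 and 0.0949. No laminin of the 5 tested was called by edgeR, while 3 (LAMA3, LAMA5 and LAMB2) had an unadjusted p under 0.05 and were called by DESeq2. Of the 6 processing genes tested, none was called by edgeR or by DESeq2 and none had an unadjusted p under 0.05. With DESeq2, 11 members were called, 10 higher and 1 lower, against 13.4% of all genes. Without replicate 3 of both groups edgeR called 14, 12 higher and 2 lower (FBLN1 and TGM2), against 10.8% of all genes. FN1 was among these, at 610.1, 600.1 and 317 CPM with DMSO and 1004, 999 and 692 CPM with RG7112 (adjusted p = 0.128 with all samples). Replicate 3 stood far above the others for FSTL3, an activin-binding follistatin-like protein, at 22.1, 19.2 and 77.3 CPM with DMSO and 18.6, 10.5 and 169 CPM with RG7112. TGM2 was at 259, 260.3 and 343 CPM with DMSO and at 198, 193 and 874 CPM with RG7112, and its log2 fold change turned from 0.55 (adjusted p = 0.626) to -0.40 (adjusted p = 0.0290) without replicate 3 of both groups. What sets replicate 3 apart was not tested.

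The promoters of COL7A1 and HSPG2, the members with the smallest p and the largest rise in A549, are shown as the 150 bases that end just before the exons, from RefSeq on GRCh38 (COL7A1 chr3:48595330-48595479 and HSPG2 chr1:21937311-21937460, both on the minus strand). Capitals mark the GC box GGGCGG, searched on both strands. They also mark the TATA motif, spelled TATAAA and likewise searched on both strands.
COL7A1: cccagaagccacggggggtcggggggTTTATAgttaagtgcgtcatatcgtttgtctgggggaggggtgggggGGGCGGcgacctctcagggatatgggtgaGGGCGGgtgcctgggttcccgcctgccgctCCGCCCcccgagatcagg
HSPG2: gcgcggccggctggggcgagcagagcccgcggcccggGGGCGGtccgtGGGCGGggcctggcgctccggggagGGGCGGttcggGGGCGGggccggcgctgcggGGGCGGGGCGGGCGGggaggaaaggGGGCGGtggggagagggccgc
COL7A1 holds 3 GC boxes and 1 TATA motif in this stretch, and HSPG2 holds 8 GC boxes, some of them overlapping. Their GC contents are 68.0% and 87.3%.

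In p53 mutant H1792 cells, RG7112 was followed by more fibronectin, periostin, versican, thrombospondin-1 and FSTL1 mRNA and by less mRNA of basement membrane and microfibrillar components (AGRN, LAMB2, COL4A2, COL6A1, COL6A2, COL7A1), of FSTL3 and TGFBI, and of the processing enzymes PLOD3, LOXL1 and TGM2. Of the 34 members tested, 16 (47.1%) were called, against 34.1% of all 9914 genes tested. There were 5 members that rose, where 17.7% of all genes did, and 11 that fell, where 16.5% did. The median log2 fold change of the 34 was -0.20 and that of all genes tested 0.01. This split depends on the scaling and on a correction for GC content. When counts were scaled by library size only, which moves the median of all genes tested to 0.27, 7 members rose and 4 fell, against 35.2% of all genes called. With the GC correction, 5 members rose and 4 fell, against 25.8% of all genes called. Of the basement membrane and microfibrillar genes named above, AGRN alone kept its call with that correction. CPM did not overlap between groups for 53.3% of all genes tested. The summed epithelial markers lay between 1813 and 2180 CPM with DMSO and between 1067 and 1333 CPM with RG7112. Of the 5 tested, KRT18, KRT7, KRT8 and KRT19 were called lower, while EPCAM had a log2 fold change of 1.22 and was not called (adjusted p = 0.102). Of the 3 fibroblast markers tested, PDGFRB rose, from 0.597 to 4.65 CPM on average (log2 fold change 2.93, adjusted p = 0.0220). PDGFRA and FAP were not called, with log2 fold changes of 0.89 and -0.44. The summed fibroblast markers lay between 12.3 and 13.5 CPM with DMSO and between 13.1 and 22.5 CPM with RG7112. The part of either marker list in the matrix results was not tested.

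**Figure D2:**
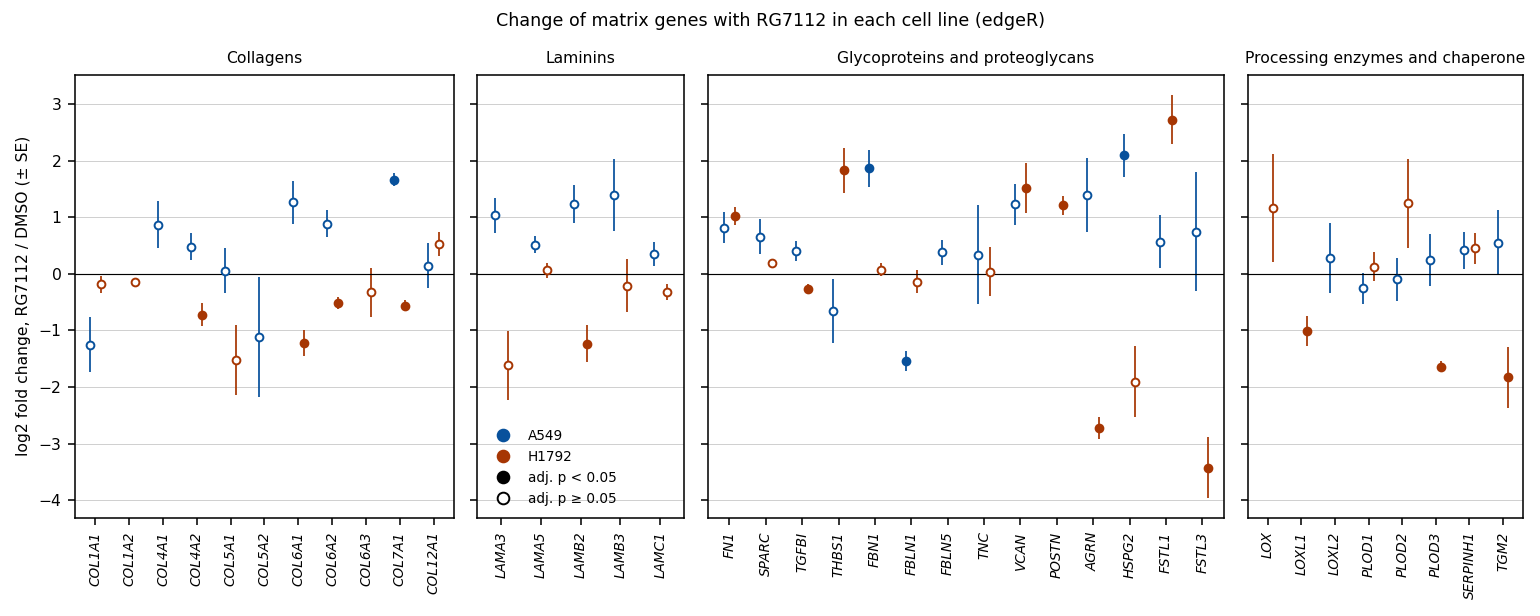
Log2 fold change with RG7112 (y axis, ± SE) for each matrix gene tested, by class, in A549 (blue) and H1792 (brown), with filled points where the adjusted p was under 0.05. COL7A1 is the member called in both lines, at 1.67 in A549 and -0.56 in H1792, and the lowest value is FSTL3 in H1792 at -3.42.

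Of the genes that rose, FN1 encodes fibronectin, the cell-adhesion glycoprotein of the interstitial matrix, and was among the most abundant members. FN1 was counted at 2599, 2099 and 2114 CPM with DMSO and at 3530.2, 4665 and 4922 CPM with RG7112, with every RG7112 sample higher (log2 fold change 1.02 ± 0.16, adjusted p = 0.00571). POSTN was at 213, 179 and 176 CPM with DMSO and at 332, 432 and 485 CPM with RG7112, again without overlap (log2 fold change 1.21 ± 0.16, adjusted p = 0.00439). The secreted glycoprotein gene FSTL1 (follistatin-like 1) had the largest rise, from 14.4, 4.37 and 12.2 CPM to 49.5, 73.5 and 67.6 CPM (log2 fold change 2.73 ± 0.44, adjusted p = 0.00634). It stood apart in every sample.

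Both other rises were in genes with low levels. THBS1 (thrombospondin-1, an adhesion modulator) was at 2.81, 5.07 and 2.18 CPM with DMSO and at 7.99, 14.2 and 12.8 CPM with RG7112 (log2 fold change 1.83 ± 0.40, adjusted p = 0.0155). Its call was lost without RG7112 replicate 2 (1.67, adjusted p = 0.0605) or 3 (1.76, adjusted p = 0.0534), and its exons overlap those of FSIP1 on the opposite strand. VCAN (versican, a chondroitin sulfate proteoglycan) was at 1.41, 1.84 and 2.61 CPM with DMSO and at 3.35, 6.39 and 6.04 CPM with RG7112 (log2 fold change 1.52 ± 0.44, adjusted p = 0.0369). Its groups did not overlap, but leaving out any DMSO replicate or RG7112 replicate 2 or 3 ended the call, with log2 fold changes of 1.35 to 1.75 and adjusted p up to 0.138 over the left-out samples.

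AGRN, the gene of agrin, a heparan sulfate proteoglycan of basement membranes and of the neuromuscular junction, fell without overlap. AGRN was at 109, 163 and 166 CPM with DMSO and at 23.7, 20.6 and 18.3 CPM with RG7112 (log2 fold change -2.73 ± 0.20, adjusted p = 0.00272). FSTL3 was at 21.8, 67.5 and 74.0 CPM with DMSO and at 5.41, 6.03 and 2.79 CPM with RG7112, with DMSO replicate 1 the lowest of its group and still above every RG7112 sample (log2 fold change -3.42 ± 0.53, adjusted p = 0.00588). LAMB2 was at 79.4, 114 and 131 CPM with DMSO and at 48.2, 57.9 and 24.8 CPM with RG7112 (log2 fold change -1.23 ± 0.33, adjusted p = 0.0297). The LAMB2 call was lost without DMSO replicate 2 (adjusted p = 0.0780), DMSO replicate 3 (0.0862) or RG7112 replicate 1 (0.0592). TGFBI moved least of the 16 called members, from 953, 1022 and 879.6 CPM to 828, 705 and 729 CPM (log2 fold change -0.26 ± 0.08, adjusted p = 0.0456), and leaving out any sample but RG7112 replicate 1 ended its call, with adjusted p up to 0.134.

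The collagens that fell were COL6A1, COL6A2, COL7A1 and COL4A2, 4 of 9 tested. None of these 4 kept its call with the GC correction. COL6A1 was at 220.0, 235 and 205 CPM with DMSO and at 125, 79.5 and 65.0 CPM with RG7112 (log2 fold change -1.22 ± 0.23, adjusted p = 0.00926). COL6A2, which lies near COL6A1 on chromosome 21, was at 139, 125 and 121 CPM with DMSO and at 78.3, 85.7 and 92.9 CPM with RG7112 (log2 fold change -0.51 ± 0.11, adjusted p = 0.0139). Neither gene overlapped between groups, and the COL6A2 call was lost without RG7112 replicate 2 (-0.51, adjusted p = 0.0516). COL7A1 was at 601, 610.1 and 667 CPM with DMSO and at 363, 439 and 404 CPM with RG7112 (log2 fold change -0.56 ± 0.095, adjusted p = 0.00707). COL4A2 was low, at 12.7, 15.4 and 13.5 CPM with DMSO and at 8.24, 7.81 and 7.90 CPM with RG7112 (log2 fold change -0.72 ± 0.21, adjusted p = 0.0384). Leaving out any 1 sample ended the COL4A2 call, with adjusted p between 0.0566 and 0.118. The abundant fibrillar chains COL1A1 and COL1A2 had log2 fold changes of -0.19 and -0.15 (adjusted p = 0.379 and 0.182).

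Of the processing enzymes, PLOD3 had the smallest p of all members in H1792. It was at 167, 214 and 190.1 CPM with DMSO and at 62.9, 56.3 and 55.3 CPM with RG7112, with all samples clearly apart (log2 fold change -1.64 ± 0.11, adjusted p = 0.00184). LOXL1 was at 62.9, 67.7 and 55.3 CPM with DMSO and at 33.2, 18.1 and 36.5 CPM with RG7112 (log2 fold change -1.01 ± 0.27, adjusted p = 0.0283), and its call was lost without DMSO replicate 1 (adjusted p = 0.0665), 2 (0.0825) or 3 (0.0594). TGM2 was at 599.7, 1035 and 800.5 CPM with DMSO and at 64.1, 285 and 296 CPM with RG7112, where replicate 1 was far below the other two (log2 fold change -1.83 ± 0.54, adjusted p = 0.0399). Leaving out any sample but RG7112 replicate 1 ended the TGM2 call, with adjusted p up to 0.106, whereas without RG7112 replicate 1 it held at -1.40 (adjusted p = 0.00828). PLOD1 and PLOD2 had log2 fold changes of 0.13 and 1.25, and SERPINH1 had 0.45, with adjusted p between 0.244 and 0.739.

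**Figure D3:**
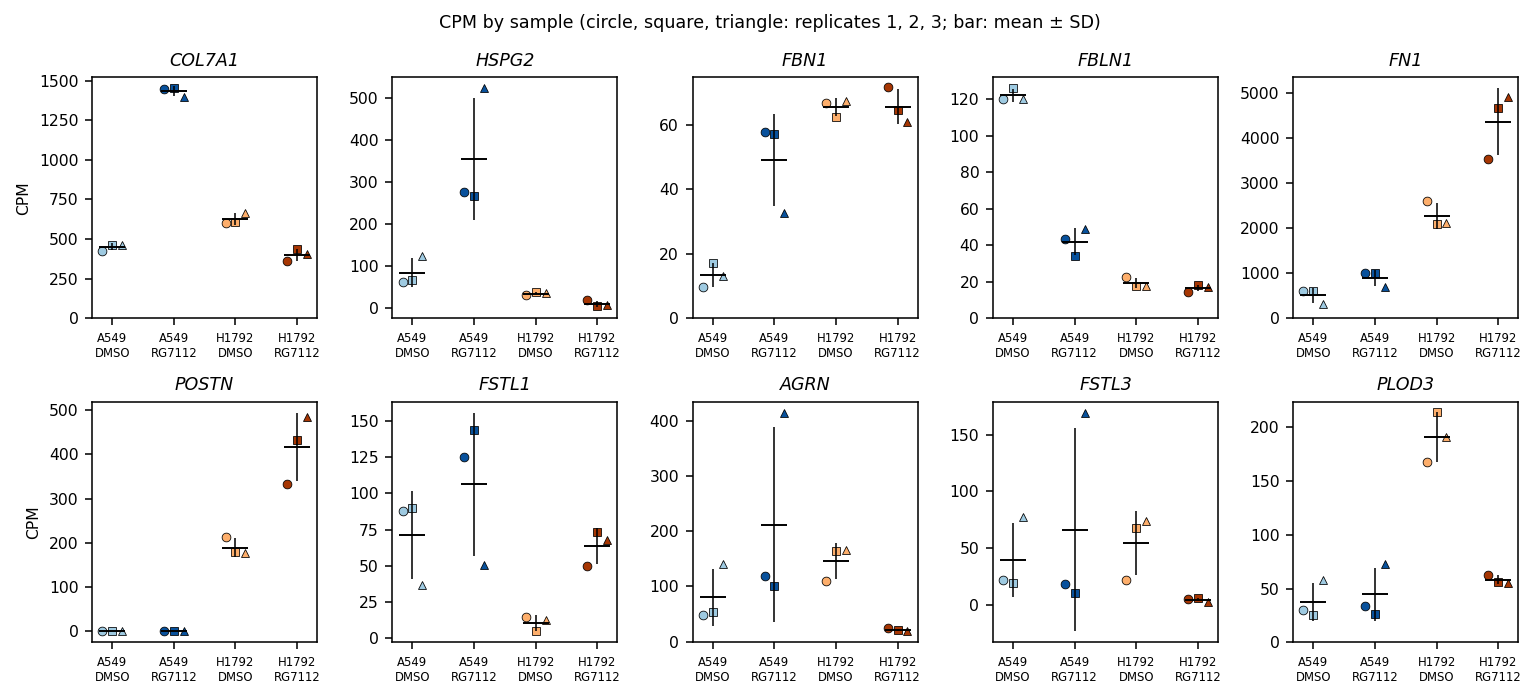
CPM of 10 matrix genes in each of the 12 samples (y axis), by cell line and treatment, with circles, squares and triangles for replicates 1, 2 and 3 and bars for the mean ± SD. COL7A1 lies between 1399 and 1454 CPM in A549 with RG7112 and between 363 and 667 CPM in H1792, and replicate 3 of A549 stands high for HSPG2, AGRN and FSTL3 and low for FSTL1.

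POSTN, which rose in H1792, and FSTL3, which fell there, differ strongly in base composition before their starts, and 150 bases upstream of the exons are shown for contrast, from RefSeq on GRCh38 (POSTN chr13:37598845-37598994 on the minus strand and FSTL3 chr19:676215-676364 on the plus strand). Capitals mark GC boxes and TATA motifs as above.
POSTN: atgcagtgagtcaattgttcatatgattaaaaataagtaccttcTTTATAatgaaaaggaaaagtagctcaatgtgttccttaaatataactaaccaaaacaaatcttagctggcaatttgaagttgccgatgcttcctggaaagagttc
FSTL3: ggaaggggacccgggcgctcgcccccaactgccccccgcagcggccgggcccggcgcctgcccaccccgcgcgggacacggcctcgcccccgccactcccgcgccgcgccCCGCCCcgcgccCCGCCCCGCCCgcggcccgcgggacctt
The stretch before POSTN has a GC content of 32.7%, with 1 TATA motif and no GC box, and that before FSTL3 has 88.0%, with 3 GC boxes. Promoter windows of 250 bases before to 50 after the RefSeq start were matched for 35 of the 44 members. GGGCGG, on either strand, was present in 27 of them (77.1%) and in 45.0% of 35116 promoters of all genes, CCAAT in 9 (25.7%) and 34.6%, and TATAAA in 6 (17.1%) and 11.5%. These shares describe letters in a window and say nothing of binding. The windows had a median GC content of 70.0% for members and 58.7% for all promoters, and the shares were not adjusted for this. In these windows both POSTN and FSTL3 held a TATA motif, that of FSTL3 outside the stretch shown. POSTN had a GC content of 39.0% in its window. VCAN, THBS1, FSTL1 and FN1, which also rose in H1792, had 60.3%, 70.0%, 73.7% and 76.7%. Matched members that fell there ranged from 58.7% (LAMB2) to 79.3% (COL6A2). POSTN and FSTL3 thus do not stand for all members that rose or fell.

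Along the transcripts, GC content differed between the members that rose and those that fell. In H1792 the 5 members that rose had a GC content of 39.0% to 45.6% (median 42.9%) and the 11 that fell one of 50.6% to 67.6% (median 63.5%), with no overlap. All genes tested had a median of 48.4%, those called higher 42.8% and those called lower 56.5%. After a correction for GC content, H1792 members numbered 5 higher and 4 lower, against 25.8% of all genes called. FSTL1, POSTN, FN1, THBS1 and LAMA5 were then called higher and AGRN, PLOD3, FSTL3 and COL1A2 lower. COL7A1 and COL6A2 turned to log2 fold changes of 0.16 and 0.26 under that correction, and the median of the members tested turned from -0.20 to 0.12. AGRN, FSTL1, FSTL3 and PLOD3 kept their calls under every alternative setting and without any single sample. In A549, the 3 members that rose had GC contents of 46.7% to 64.8% (median 64.5%). All genes tested there had a median of 49.3%, those called higher 56.4% and those called lower 47.8%, the reverse of the order in H1792. COL7A1, HSPG2, FBN1 and FBLN1 all kept their calls with the correction.

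**Figure D4:**
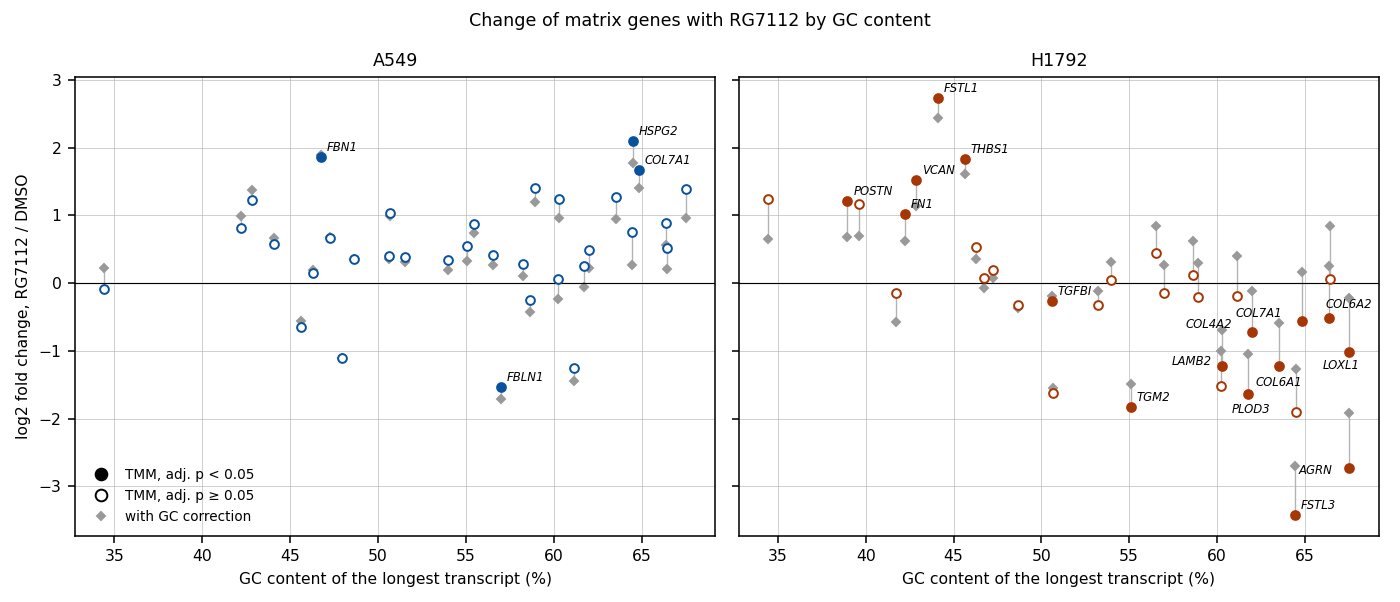
Log2 fold change with RG7112 (y axis) against the GC content of the longest transcript (x axis, %) for the matrix genes tested in A549 and H1792, with circles for TMM scaling (filled where the adjusted p was under 0.05) and grey diamonds for the same gene after GC correction. In H1792 the members that rose lie between 39.0% and 45.6% GC and those that fell between 50.6% and 67.6%.

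The last comparison tested whether the responses of the lines differed, by subtracting the H1792 response from the A549 response on the log2 scale, over all 12 samples. It shares its samples with the comparisons above, so its values stand beside theirs and are no separate support. Of 38 members tested, 14 (36.8%) were called, 12 with a higher value in A549 and 2 (FBLN1 and THBS1) with a lower one, against 21.8% of all 11666 genes tested. Higher values were called for 10.4% of all genes and lower ones for 11.4%. The median difference of the members was 0.73, against 0.02 for all genes tested. With library size only, which moves the latter to -0.37, 10 members were higher and 4 lower, against 24.0% of all genes called.

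COL7A1 had the smallest p, with a difference of 2.30 ± 0.13 (adjusted p = 2.02e-06), and it was the 1 member, of 29 tested in both lines, that was called in each of them by edgeR. DESeq2 called 7 members in both lines, with FN1 higher in both and COL7A1, HSPG2, LAMB2, LAMA3, COL6A1 and COL6A2 higher in A549 and lower in H1792. The share of all genes called in both lines, or in opposite directions, was not determined. These counts therefore cannot be read as a trait of the matrix genes. For the basement membrane proteoglycans HSPG2 and AGRN the differences were 4.10 ± 0.76 (adjusted p = 0.00491) and 4.20 ± 0.79 (adjusted p = 0.00537). In H1792 HSPG2 was at 29.9, 36.4 and 34.4 CPM with DMSO and at 18.0, 2.84 and 5.11 CPM with RG7112 (log2 fold change -1.91, adjusted p = 0.0558). AGRN in A549 was at 48.3, 53.3 and 139.9 CPM with DMSO and at 119, 101 and 415 CPM with RG7112, groups that overlapped through replicate 3 (log2 fold change 1.40, adjusted p = 0.252). Without replicate 3 of both A549 groups, AGRN had a log2 fold change of 1.12 in A549 (adjusted p = 0.0141) and a difference of 3.92. Among the laminins, LAMB2 differed by 2.54 ± 0.51 (adjusted p = 0.00729) and LAMA3, the α3 chain of epithelial anchoring laminin, by 2.73 ± 0.73 (adjusted p = 0.0235). LAMA3 was at 47.3, 43.2 and 84.0 CPM with DMSO and 136, 84.2 and 137 CPM with RG7112 in A549, and at 47.1, 44.9 and 30.9 CPM with DMSO and 18.8, 16.7 and 2.55 CPM with RG7112 in H1792. The LAMA3 call was lost without A549 DMSO replicate 1 (adjusted p = 0.0611) or 2 (0.0616) or H1792 DMSO replicate 2 (0.0524).

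COL6A1, COL6A2 and COL4A2 differed by 2.56, 1.47 and 1.29 (adjusted p between 0.00183 and 0.0152). With the GC correction COL6A2 and COL4A2 were no longer called. In A549, COL6A1 was at 21.5, 25.7 and 34.8 CPM with DMSO and 55.3, 39.9 and 102 CPM with RG7112, COL6A2 went from a range of 14.7 to 17.4 CPM to one of 25.7 to 36.0 CPM, and COL4A2 from 148 to 231 CPM to 209 to 310.3 CPM, which overlap. FBN1 differed by 1.86 ± 0.35 (adjusted p = 0.00508). It was at 66.8, 62.4 and 67.4 CPM with DMSO and 71.6, 64.6 and 60.8 CPM with RG7112 in H1792, overlapping groups, so that the A549 samples came closer to the H1792 level with RG7112. FBLN1 differed by -1.32 ± 0.24 (adjusted p = 0.00443) and was at 22.5, 17.5 and 17.8 CPM with DMSO and 14.7, 18.1 and 17.0 CPM with RG7112 in H1792.

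PLOD3, TGFBI, THBS1 and FSTL3 differed by 1.96, 0.74, -2.41 and 4.25 (adjusted p = 0.0222, 0.0287, 0.0387 and 0.0488), and each lost its call without 1 of several samples. PLOD3 in A549 was at 29.9, 25.4 and 57.6 CPM with DMSO and 34.0, 26.6 and 72.9 CPM with RG7112, overlapping groups. TGFBI in A549 was at 1531, 1614 and 2089 CPM with DMSO and 2169, 2009 and 2755 CPM with RG7112, and THBS1 at 7.47, 7.49 and 3.23 CPM and 1.86, 6.18 and 4.06 CPM, both overlapping. For PLOD3 these samples were A549 DMSO replicates 1 and 2, H1792 DMSO replicate 2 and H1792 RG7112 replicates 2 and 3, with adjusted p up to 0.0596. For FSTL3 the difference fell to 2.09 (adjusted p = 0.161) without A549 RG7112 replicate 3, and was 3.03 (adjusted p = 0.0199) without replicate 3 of both A549 groups. The FSTL3 call was also lost without any H1792 RG7112 replicate, A549 DMSO replicate 1 or 2 or H1792 DMSO replicate 2 or 3. For TGFBI it was lost without any of A549 DMSO replicates 1 and 2, A549 RG7112 replicate 3, H1792 DMSO replicates 1 and 2 and H1792 RG7112 replicates 2 and 3, with adjusted p up to 0.0802. For THBS1 it held only without A549 DMSO replicate 3, A549 RG7112 replicate 2, H1792 DMSO replicate 2 or H1792 RG7112 replicate 1, and adjusted p reached 0.0860 without the others. FN1, VCAN and SERPINH1 had differences of -0.13, -0.22 and 0.03, with adjusted p between 0.813 and 0.986.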

How the data were processed

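Poly-A RNA of 12 samples had been read from either end at 38 nt per the labels, while the paper's methods give another instrument and longer reads. The authors estimated transcript abundances with kallisto 0.45.0 on the Ensembl 95 transcriptome of GRCh38 and added them up to genes. They deposited estimated counts (expected counts) per gene as whole numbers without normalization, and all 12 columns were used. Duplicate reads cannot be recognised, so intervals and floors cover counting error only. No replicate pair agreed within sampling noise.

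Genes were tested in R 4.3.3 with edgeR 4.0.16 (robust quasi-likelihood, TMM, filterByExpr with a minimum count of 10 and a total of 15), separately for each cell line, for DMSO between lines and for the interaction. Calls needed a Benjamini-Hochberg adjusted p under 0.05. Alternatives were DESeq2 1.42.0, limma-trend with limma 3.58.1, RLE size factors, library size only, other count filters, the study's absolute log2 fold change over 1, an adjusted p under 0.01, the replicate number as a block, a loess correction for GC content (span 0.5), all samples in one fit, leaving out samples and, for length, the longest transcript. GENCODE v29 supplied positions, lengths and GC content for 18011 of 20595 identifiers. Promoters came from RefSeq on GRCh38.p14, which held no entry here for COL1A1, COL1A2, COL3A1, COL5A2, COL6A1, LAMA1, AGRN, LOXL2 and TGM2. LOXL4 was not analysed here.

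Values per sample are given for members called in either line or in the interaction and, at baseline, for the 5 with the largest difference in each direction. Of the other pathway lists, at most the 3 called genes with the smallest p per line were named, except for collagen folding in H1792, where every called gene was named. The promoters and genes in the plots by sample were chosen after their values were seen, and the members and lists were chosen with earlier results of these data known.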

Additional observations from a re-analysis of the deposited data

Results flagged for a closer look

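The responses of A549 and H1792 differed, by the interaction test in edgeR, for 14 matrix genes, and the values are A549 responses less H1792 responses on the log2 scale. The 4 collagens were COL7A1 (2.30), COL6A1 (2.56), COL6A2 (1.47) and COL4A2 (1.29), and the laminins were LAMA3 (2.73) and LAMB2 (2.54). The glycoproteins and proteoglycans with a higher value in A549 were FSTL3 (4.25), AGRN (4.20), HSPG2 (4.10), FBN1 (1.86) and TGFBI (0.74), and those with a lower one were THBS1 (-2.41) and FBLN1 (-1.32). PLOD3 (1.96) was the processing enzyme. COL7A1, COL6A1, LAMB2, FBN1, FBLN1, AGRN and HSPG2 were called under every alternative setting and without any single sample.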

How the results depend on the processing

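The 26 members called between the DMSO groups were 18 to 28 under the alternatives and 27 to 28 without single samples. Of the 26, 21 were called in every setting that tested them. The filter of at least 10 counts in every sample left some of these untested, among them COL1A2, POSTN and LOXL1. Members called in A549 numbered 4 and were 11 with DESeq2, 2 at an adjusted p under 0.01, 7 with the GC correction, 12 with all 12 samples in one fit, 14 without replicate 3 of both A549 groups, and 2 to 5 without single samples, with 2 called in every alternative. Of these, A549 without DMSO replicate 1 gave 2. In H1792 the 16 were 8 at an adjusted p under 0.01, 9 with the GC correction, and 10 to 15 without single samples, with 10 without DMSO replicate 2 or RG7112 replicate 2, and 4 were called throughout. For the interaction the 14 were 8 at an adjusted p under 0.01 and 9 to 16 without single samples, with 9 without A549 DMSO replicate 1. The cause was not tested for any of these. COL6A2 and COL7A1 reversed in H1792 with the GC correction (0.26 and 0.16) and with the replicate block and GC correction together (0.26 and 0.15). Over all genes, calls in A549 went from 900 to 1438 with DESeq2, 1557 in one fit and 296 at the stricter p, and in H1792 from 3384 to 1840 with the replicate block, 880 with the block and GC correction, 1450 with the fold change threshold and 1383 at the stricter p. Between the DMSO groups 5134 became 3362 at the stricter p, and the 2539 of the interaction became 848 at the stricter p and 1674 with the block and GC correction. Library size only moved the share of higher calls in H1792 from 51.8% to 75.6% (2637 higher and 849 lower), between the DMSO groups from 53.3% to 63.3%, and in the interaction from 47.7% to 23.0%. With the longest transcript as length, COL1A2/COL1A1 in H1792 was 4.51 in place of 3.54 and COL4A2/COL4A1 in A549 16.8 in place of 12.6.

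Samples with the same replicate number correlated in their deviations from the group means by 0.115, 0.0609 and 0.273 in A549 and by -0.0238, -0.00181 and 0.00345 in H1792, so the numbers were not taken to pair the samples. With the replicate block, 11 of 33 members tested were called in A549, against 938 of 10739 genes. In H1792 10 of 34 were called, against 1840 of 9914 genes. Between the DMSO groups 27 of 35 were called, against 4641 of 10330 genes, and in the interaction 15 of 38, against 2357 of 11666. With the block and the GC correction, members called were 12, 5, 25 and 11 in the same order. All genes called were then 1128, 880, 4591 and 1674. In A549, replicates 1 and 2 did not correlate best with their own number, but replicate 3 did (0.273, against at most -0.16 with other numbers). The main A549 test has no block and so does not take up what the replicate 3 samples share. At these depths, genes with few counts, such as COL3A1, COL17A1, LAMA1 and (in A549) LOX, allow no statement on change.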

Other observations

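Of 14 genes for collagen folding and modification, 9 were tested in A549, where P4HA2 (a prolyl 4-hydroxylase subunit, log2 fold change 0.77) and CRTAP (a subunit of the prolyl 3-hydroxylation complex, 0.49) rose. In H1792, 5 of 10 were called, 2 higher and 3 lower. CRTAP (0.35) and P4HA1 (0.87) rose there as well. P3H1 (the catalytic partner of CRTAP, -1.21), FKBP10 (a collagen prolyl isomerase, -1.39) and P3H3 (-2.18) fell. P3H1 fell there from 184 ± 8.17 to 75.6 ± 15.1 CPM (SD, n = 3). Of the propeptide and cross-linking list, BMP1 (the procollagen C-proteinase) rose in A549 from 208 ± 12.4 to 488 ± 45.1 CPM (1 of 3 tested), and in H1792 ADAMTS3 (a procollagen N-proteinase) rose by 3.50 on the log2 scale while PCOLCE (the enhancer of BMP1) had a log2 fold change of -1.06 (2 of 5 tested). Of the genes for procollagen export from the endoplasmic reticulum, 4 of 9 tested rose in H1792 and 1 fell. SEC23A rose there from 54.7 ± 8.19 to 167 ± 15.3 CPM, and SEC31A rose by 0.97 on the log2 scale. In A549 SEC31A rose by 1.02, 1 of 9 tested.

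Among 28 other basement membrane and matrix genes, COL4A5 (the α5 chain of type IV collagen, log2 fold change 1.43) and COL16A1 (1.11) rose in A549, 2 of 16 tested, and in H1792 4 rose and 3 fell of 15 tested, with COL16A1 at -1.17, EFEMP1 (fibulin-3) at 1.28 and LAMA4 at 1.10. Of 21 TGF-β pathway genes, edgeR called none of 16 tested in A549, where 1 (SMAD6) had an unadjusted p under 0.05 and was called by DESeq2. In H1792, 5 of 13 were called, 3 higher and 2 lower, with SMAD3 at 1.63, LTBP3 at -0.79 and SMAD4 at 1.37. Background shares are those given for each line, 8.38% of all genes in A549 and 34.1% in H1792.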
